A study of Mus musculus with 6 samples.

Results

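The 10 genes described here carry the nuclear and downstream arm of the Notch pathway. They are the DNA-binding effector Rbpj, the transcriptional repressors Hes1, Hes5, Hey1, Hey2 and Heyl, the feedback inhibitor Nrarp, the target Cdca7 and the sugar transferases Lfng and Mfng. They were chosen by name, with earlier results of these data known. Each was read from a probe set (the array's group of probes for a transcript) that the platform annotation assigned to that gene alone, and all 10 were measured among 19937 genes in all. Cells came from the dissected aorta, gonad and mesonephros (AGM) region of E11.5 embryos of the CD1 mouse strain (E, embryonic day), at the time labelled T0. After collagenase digestion, CD31-positive, CD45-negative and Ter119-negative cells were sorted and divided by surface c-kit into 3 c-kit-positive and 3 c-kit-negative samples, with 1 array each. No genotype or treatment separates the populations, so the sort on c-kit is the only contrast. The labels call the replicates biological without saying how many embryos were pooled. The p-values therefore measure the spread between these arrays, and their number limits the precision.

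Notch is a receptor cleaved by membrane proteases after it meets a ligand on a neighbouring cell. The freed intracellular domain enters the nucleus, binds Rbpj and Mastermind, and turns genes from repression to transcription. In the embryonic aorta this signal is known for arterial identity and for the emergence of blood stem cells from the vessel wall, and Hes1, Hes5 and Cdca7 have been studied there as targets.

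Values were log2 RMA values with array medians between 5.42 and 5.52. The sort checked out on the RNA of its own marker: Kit averaged 8.22 ± 0.04 on the c-kit-negative arrays and 9.55 ± 0.035 on the c-kit-positive arrays (log2, SD, n = 3 each). Pecam1, which encodes CD31, averaged 10.02 ± 0.02 and 9.13 ± 0.16, in the same order. Ptprc, which encodes the CD45 that both populations were selected against, averaged 8.75 ± 0.60 and 8.52 ± 0.13. Pan-endothelial markers were lower in c-kit-positive cells, with 24 of 25 past the test, and primordial germ cell markers higher, with 20 of 27. The 20 became 14 without c-kit-positive replicate 1 or 3, and the 24 became 22 without c-kit-negative replicate 3. Fewer cells of a type and less RNA per cell cannot be told apart in such bulk samples. RMA values carry no detection call, so no gene is called absent, and levels are compared between arrays but not between genes.

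Of the 10 genes 1 fell in c-kit-positive cells, the artery-associated repressor Hey2, which was 3.61-fold lower. None rose, the test being limma's with a Benjamini-Hochberg threshold of 0.05 over all 19937 genes. By the same test 4.70% of all genes fell and 2.71% rose, or 7.41% in either direction, beside 1 of 10 here. At an unadjusted p under 0.05 in limma the count was 2, Hey2 and Nrarp, or 2 of 10 against 21.0% of all genes, and the linear model without variance moderation also called no member higher. The differences (c-kit-positive minus c-kit-negative, log2) ran from -1.85 for Hey2 to 0.41 for Cdca7. Of these 4 were positive and 6 negative. Among all genes a difference of -0.0037 stood at the 38.4th percentile, so positive differences were the more common. The median of the 10 was -0.093, beside 0.072 over all genes. It was -0.015 without c-kit-negative replicate 1, -0.18 without c-kit-positive replicate 3 and -0.063 without c-kit-positive replicate 1, and -0.020 with probe sets averaged. The 3 values of each population did not overlap for 3 members, Hey2, Nrarp and Lfng, all lower in c-kit-positive cells, where 10.6% of all genes separated in that direction. None separated upwards, where 16.2% of all genes did.

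**Figure D1:**
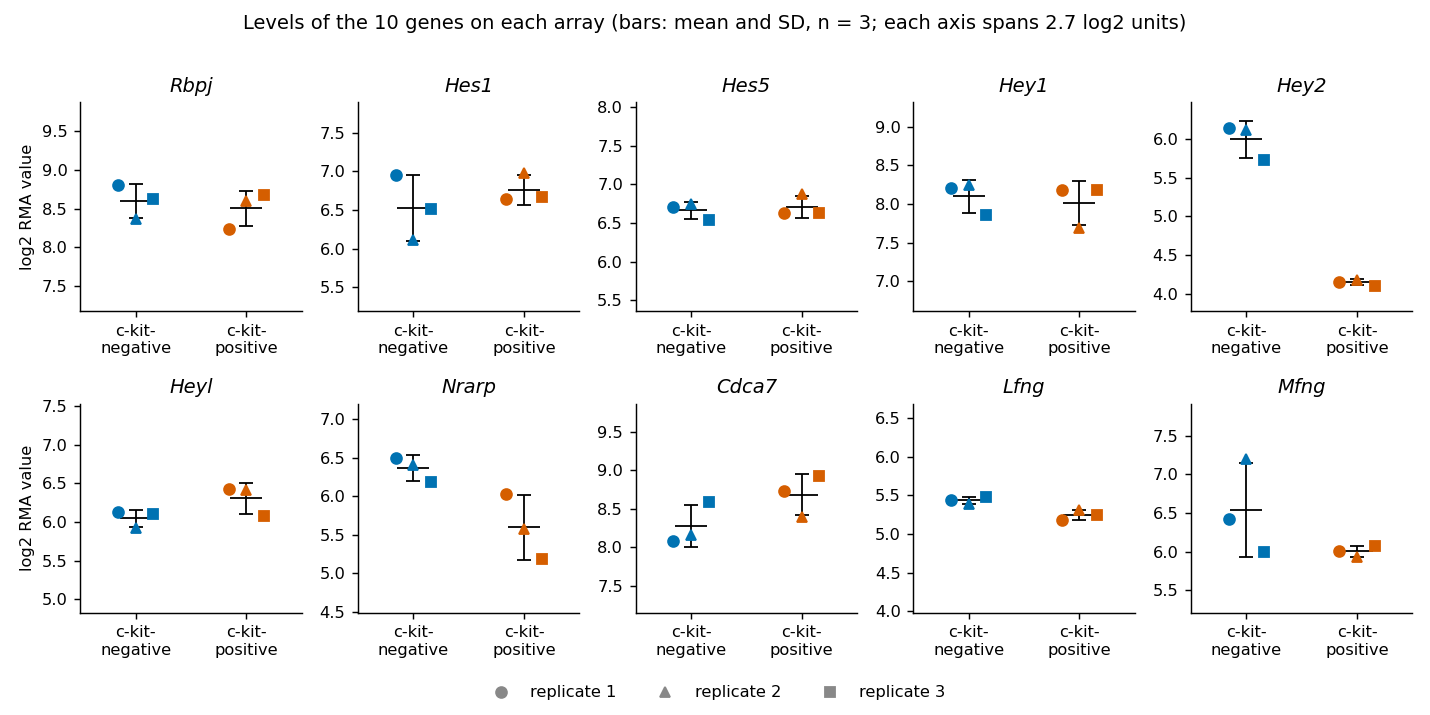
Log2 RMA value of each of the 10 genes on the 6 arrays, with c-kit-negative arrays in blue and c-kit-positive arrays in orange; marker shapes are replicate numbers and black bars the mean and SD of 3 arrays. The populations are separate for Hey2, Nrarp and Lfng, and the gap is widest for Hey2, at 5.73 to 6.15 against 4.10 to 4.18.

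Rbpj is the DNA-binding protein on which signals of all Notch receptors converge, and it represses its targets when no Notch is bound. Its log2 values on c-kit-negative arrays 1, 2 and 3 were 8.81, 8.37 and 8.62, and those on c-kit-positive arrays 1, 2 and 3 were 8.24, 8.60 and 8.67. The populations overlapped, and the difference of -0.098 ± 0.18 (SE, adjusted p = 0.804, limma) had a 95% interval from -0.50 to 0.30. A second Rbpj probe set, left out by the rule of the highest mean, which the annotation ties to 1 transcript accession where the used one has 7, stood at 3.67 in c-kit-negative and 4.22 in c-kit-positive cells. It thus lay on the other side, with a difference of 0.55. The mean of both probe sets gave 0.23 (adjusted p = 0.529, limma). The sign also turned without c-kit-negative replicate 1 (0.0062) or c-kit-positive replicate 1 (0.034), so no direction is given for Rbpj.

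Hes1 is a basic helix-loop-helix repressor that answers Notch in many tissues and holds back differentiation. It read 6.96, 6.11 and 6.52 in c-kit-negative and 6.64, 6.98 and 6.67 in c-kit-positive replicates 1, 2 and 3. The c-kit-negative arrays were spread more widely than the c-kit-positive ones and held both the second highest and the lowest value. The difference was 0.23 ± 0.22 (SE, adjusted p = 0.614, limma, 95% interval -0.28 to 0.74). It was 0.45 without c-kit-negative replicate 1 and 0.021 without c-kit-negative replicate 2. Macrophage markers averaged 7.13 on c-kit-negative replicate 1, where Hes1 was highest in that population, and 6.29 and 6.15 on replicates 2 and 3. Venous and lymphatic markers were also highest there, at 7.50, against 7.41 and 7.46 on replicates 2 and 3. The sort selects against cells with CD45, macrophages among them. Ptprc, which encodes CD45, read 9.40, 8.66 and 8.21 on c-kit-negative replicates 1, 2 and 3. The macrophage list and Ptprc were lowest on replicate 3, whereas Hes1 was lowest on replicate 2. The part of any of these cell types in the Hes1 value was not tested.

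Hes5, a relative of Hes1 that often acts beside it, was the least different. Its c-kit-negative values were 6.70, 6.75 and 6.54 and its c-kit-positive values 6.63, 6.88 and 6.63 in replicates 1, 2 and 3. All 6 arrays lay between 6.54 and 6.88, and the difference of 0.0475 ± 0.14 (SE, adjusted p = 0.888, limma) had an interval from -0.27 to 0.37. Its sign turned without c-kit-negative replicate 3 or c-kit-positive replicate 2, to -0.013 and -0.035.

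The Hey genes encode repressors of the same class that are known as Notch effectors in heart and vessels. Hey2, which favours arterial over venous fate, read 6.15, 6.12 and 5.73 in c-kit-negative and 4.16, 4.18 and 4.10 in c-kit-positive replicates 1, 2 and 3. Every c-kit-positive value was lower than every c-kit-negative one, and the c-kit-positive arrays differed among themselves by less than the c-kit-negative arrays did. The means were 5.996 ± 0.24 and 4.15 ± 0.04 (SD, n = 3 each), and Hey2 fell by 1.85 ± 0.15 on the log2 scale (SE, adjusted p = 0.000256, limma, 95% interval -2.20 to -1.50). Low signal limits how large a fold an array can show, and Hey2 lies among the dimmer 50 percent of genes. On the same arrays pan-endothelial markers averaged 8.15 to 8.26 in c-kit-negative and 5.81 to 5.95 in c-kit-positive cells, and 15 of 21 arterial markers fell. So did 10 of 12 venous and lymphatic markers, with a median difference of -2.15, beside -1.19 for the arterial list. The part of these lists in the difference of Hey2 was not tested, and some of their genes, such as Dll4, Jag1 and Efnb2, also stand in the pathway lists below.

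Hey1, a Notch effector that overlaps Hey2 in function, did not pass. It read 8.21, 8.25 and 7.85 in c-kit-negative and 8.18, 7.68 and 8.18 in c-kit-positive replicates 1, 2 and 3, so the populations overlapped. The difference was -0.088 ± 0.19 (SE, adjusted p = 0.838, limma, 95% interval -0.52 to 0.34), and 0.076 without c-kit-positive replicate 2. Heyl, the third member of the family, read 6.13, 5.93 and 6.10 in c-kit-negative and 6.43, 6.41 and 6.08 in c-kit-positive replicates 1, 2 and 3. C-kit-positive replicates 1 and 2 stood above all c-kit-negative arrays and replicate 3 within them, with a difference of 0.26 ± 0.15 (SE, adjusted p = 0.390, limma, 95% interval -0.09 to 0.60).

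The contrast of Hey2 with each paralog was read within arrays, a comparison added after the values were seen. Hey2 minus Hey1 was -2.10 ± 0.04 in c-kit-negative and -3.87 ± 0.31 in c-kit-positive cells (log2, SD, n = 3 each), a change of -1.76. Hey2 minus Heyl was -0.054 ± 0.29 and -2.16 ± 0.16, a change of -2.11. The 3 and 3 arrays did not overlap for either pair. In Hey2 alone the gap between the populations was wider than the spread of Hey1 or Heyl over the 6 arrays. The lack of overlap and the p below were thus fixed beforehand, and the changes are no further test of Hey2. Each two-sided exact permutation p was 0.1, the smallest that 3 against 3 arrays allow, and 0.1 after adjustment over the 2 pairs. With 3 against 3 arrays this permutation test cannot reach 0.05.

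By the root mean square difference between values centred on each gene's own mean over the 6 arrays, the genes most like Hey2 were Adamts1, an extracellular protease (0.101 log2 units), Tcf7l2, a nuclear effector of Wnt signalling (0.104), and Tcf4, a helix-loop-helix factor that partners tissue-specific factors (0.104). Their own differences were -1.76, -1.79 and -1.66. The likeness describes these 6 arrays, which share the contrast of the populations.

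Nrarp is a small ankyrin-repeat protein that Notch induces and that destabilises the Notch intracellular domain. It read 6.50, 6.41 and 6.18 in c-kit-negative and 6.02, 5.58 and 5.19 in c-kit-positive replicates 1, 2 and 3. All c-kit-positive values lay below all c-kit-negative ones, and the c-kit-positive arrays were the more spread. The means were 6.36 ± 0.17 and 5.60 ± 0.42 (SD, n = 3 each). The difference of -0.77 ± 0.22 (SE, adjusted p = 0.0759, limma, 95% interval -1.26 to -0.27) did not pass. Without c-kit-positive replicate 1, the highest of its population, the difference was -0.98 and passed (adjusted p = 0.0302, limma). Over the alternatives the adjusted p ran from 0.0302 to 0.257.

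Cdca7 encodes a zinc finger protein that works with the chromatin remodeller Hells, and it is known as a Notch target in this region. It read 8.08, 8.16 and 8.59 in c-kit-negative and 8.73, 8.40 and 8.93 in c-kit-positive replicates 1, 2 and 3. C-kit-positive replicate 2 lay below c-kit-negative replicate 3, and the difference of 0.41 ± 0.20 (SE, adjusted p = 0.285, limma, 95% interval -0.04 to 0.85) did not pass. With 1 array left out it ran from 0.28 to 0.56 and never changed sign.

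A small set of related chromatin genes was read beside it. Hells rose by 1.71-fold (0.78 ± 0.16, log2, SE, adjusted p = 0.0212, limma), and Dnmt3b, a DNA methyltransferase, rose by 2.10-fold (adjusted p = 0.0164, limma). The other 4 of the 6, Zbtb24, Dnmt1, the paralog Cdca7l and Uhrf1, did not pass, with differences of 0.32, 0.25, 0.23 and -0.19. The call of Hells was lost without any 1 array other than c-kit-negative replicate 1, and that of Dnmt3b without c-kit-negative replicate 1 or 3.

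Since Cdca7 is also known to follow the cell cycle, 30 DNA replication genes were read as well. Of these 6 rose and none fell, with a median difference of 0.39, beside 0.072 over all genes. The difference was positive for 28 (27 after quantile normalization, and 26 to 29 with 1 array left out). The rises included Gins1 (2.10-fold), a subunit of the replicative helicase, Prim1 (1.88-fold), the catalytic primase subunit, Orc1 (1.96-fold), of the origin recognition complex, and Pole (1.66-fold), a replicative polymerase. The 6 rises became 2, 2 and 4 without c-kit-negative replicates 1, 2 and 3, and 3, 3 and 2 when c-kit-positive arrays 1, 2 and 3 were left out. Of the genes named, Gins1 passed without each array in turn, and the calls of Prim1, Orc1 and Pole were each lost without 3 or 4 of the arrays. The replication list averaged 8.001 to 8.17 on the c-kit-negative and 8.46 to 8.64 on the c-kit-positive arrays. Its part in the value of Cdca7 was not tested.

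The fringe enzymes lengthen O-fucose sugars on Notch receptors and so shift which ligands a receptor answers. Lfng read 5.43, 5.39 and 5.48 in c-kit-negative and 5.18, 5.31 and 5.24 in c-kit-positive replicates 1, 2 and 3. The populations did not overlap, but the gap was small: the difference was -0.19 ± 0.13 (SE, adjusted p = 0.444, limma, 95% interval -0.48 to 0.10). The SE comes from a variance that limma draws towards that of all genes, and without that moderation the adjusted p was 0.161.

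Mfng, the fringe known from blood and endothelium, read 6.43, 7.19 and 5.997 in c-kit-negative and 6.01, 5.93 and 6.08 in c-kit-positive replicates 1, 2 and 3. The c-kit-positive arrays lay close together, whereas c-kit-negative replicate 2 was far above and replicate 3 within them. The difference of -0.54 ± 0.27 (SE, adjusted p = 0.312, limma, 95% interval -1.16 to 0.09) shrank to -0.21 without c-kit-negative replicate 2 and was -0.81 without c-kit-negative replicate 3. On c-kit-negative replicate 2 the arterial list averaged 7.12, against 6.96 and 6.90 on replicates 1 and 3, and the mesenchymal list 6.42, against 6.07 and 6.29. The pan-endothelial, haematopoietic progenitor and mesonephric lists were also highest there in that population, at 8.26, 6.62 and 5.91. The remaining cell type lists were highest on replicate 1 or 3. The sort for CD31 selects against mesenchymal cells. The part of any of these cell types in the Mfng value was not tested. Rfng, the remaining fringe gene, differed by -0.08 and did not pass (adjusted p = 0.872, limma).

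**Figure D2:**
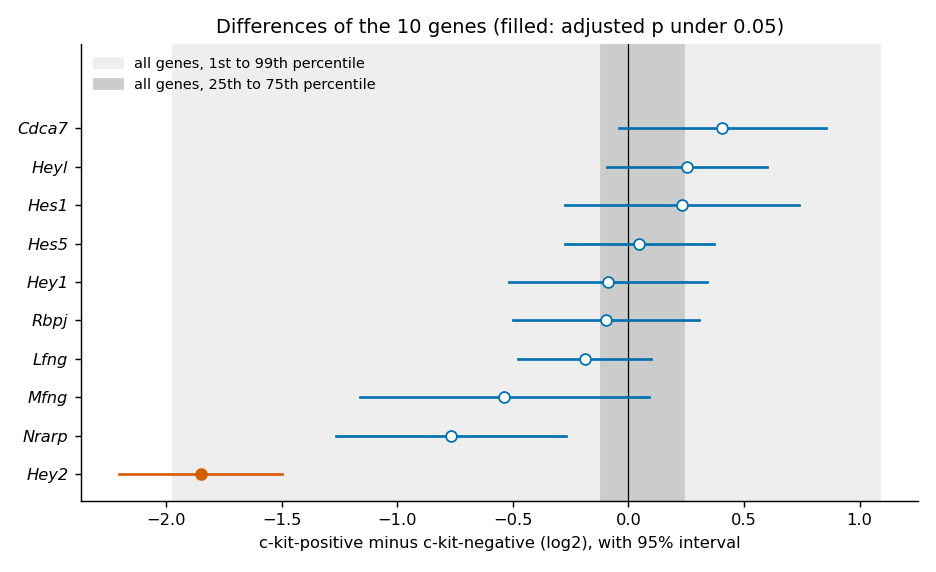
Difference of each gene between the populations (c-kit-positive minus c-kit-negative, log2; horizontal axis) with its 95% interval from limma; the filled point passed the adjusted test, and grey bands span the 1st to 99th and the 25th to 75th percentiles of all genes. Hey2, at -1.85, lies near the 1st percentile of all genes (-1.97), while the intervals of the other genes except Nrarp include 0.

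Promoter sequence was available from RefSeq (GRCm38.p6) for 6 of the 10 genes, Rbpj, Hes5, Hey2, Nrarp, Cdca7 and Lfng, with 2 entries for Rbpj. Hes1, Hey1, Heyl and Mfng were not analysed in this respect. Each window runs from 250 bases before to 50 bases after an annotated start site, and positions below count the start site as 1 with no position 0. The windows held 59.3% to 72.7% G and C. The core of the motif that Rbpj binds, TGGGAA, was searched on both strands, and so was the longer form GTGGGAA, which contains it. The core occurs in 25.6% of all 32851 windows and the longer form in 6.38%. The windows of 5 members hold the core and those of 4, Hey2, Hes5, Lfng and Cdca7, the longer form. These 4 are printed because they set the gene that fell beside 3 that did not pass and share the same motif. Capitals mark matches to the core or the longer form, read as TTCCCA or TTCCCAC where the motif lies on the opposite strand, and in Lfng also the E-box described below.
Hey2: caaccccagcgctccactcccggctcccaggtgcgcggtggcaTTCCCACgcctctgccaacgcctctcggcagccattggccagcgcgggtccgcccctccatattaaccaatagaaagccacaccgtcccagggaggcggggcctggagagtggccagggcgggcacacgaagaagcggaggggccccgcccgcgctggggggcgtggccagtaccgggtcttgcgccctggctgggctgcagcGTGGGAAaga
Hes5: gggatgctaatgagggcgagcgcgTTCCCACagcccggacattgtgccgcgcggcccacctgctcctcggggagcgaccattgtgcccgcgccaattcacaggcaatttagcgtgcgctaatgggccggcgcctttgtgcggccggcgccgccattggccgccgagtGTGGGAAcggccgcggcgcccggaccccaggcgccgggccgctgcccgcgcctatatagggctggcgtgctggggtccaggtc
Lfng: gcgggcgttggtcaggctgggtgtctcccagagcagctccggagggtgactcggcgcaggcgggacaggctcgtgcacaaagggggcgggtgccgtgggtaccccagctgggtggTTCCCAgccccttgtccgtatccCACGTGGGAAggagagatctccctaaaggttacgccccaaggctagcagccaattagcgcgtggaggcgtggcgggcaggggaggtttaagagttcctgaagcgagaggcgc
Cdca7: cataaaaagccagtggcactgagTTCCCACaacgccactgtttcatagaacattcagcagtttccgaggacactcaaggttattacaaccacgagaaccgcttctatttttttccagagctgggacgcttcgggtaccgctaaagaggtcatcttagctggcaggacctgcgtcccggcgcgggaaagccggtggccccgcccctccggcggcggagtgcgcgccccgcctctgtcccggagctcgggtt

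The Hey2 sequence covers chr10:30842778-30843033 on the minus strand, from position -250 to 6. It holds the longer form in opposite orientations, at -207 to -201 and across the start site at -4 to 3. The Hes5 sequence (chr4:154960673-154960922, plus strand) also holds it in opposite orientations, at -226 to -220 and -83 to -77. Hey2 was 3.61-fold lower and Hes5 differed by 0.0475 on the log2 scale and did not pass. The gap between these values was not tested.

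The Lfng sequence (chr5:140607091-140607340, plus strand) holds the core at -135 to -130 and the longer form at -109 to -103. The second match overlaps CACGTG at -112 to -107, an E-box of the kind that Hey proteins and other helix-loop-helix factors can bind, which occurs in 7.15% of all windows. Nrarp, whose window holds no core, has an E-box at -108 to -103. The Cdca7 sequence (chr2:72475969-72476218, plus strand) holds 1 longer form at -227 to -221. Its window also has TTTCCCGC, a motif of the E2F factors of the cell cycle, on the opposite strand at -71 to -64, found in 1.07% of all windows. The Rbpj windows hold 2 and 1 cores and no longer form. A match describes letters in these windows and was not tested for binding.

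**Figure D3:**
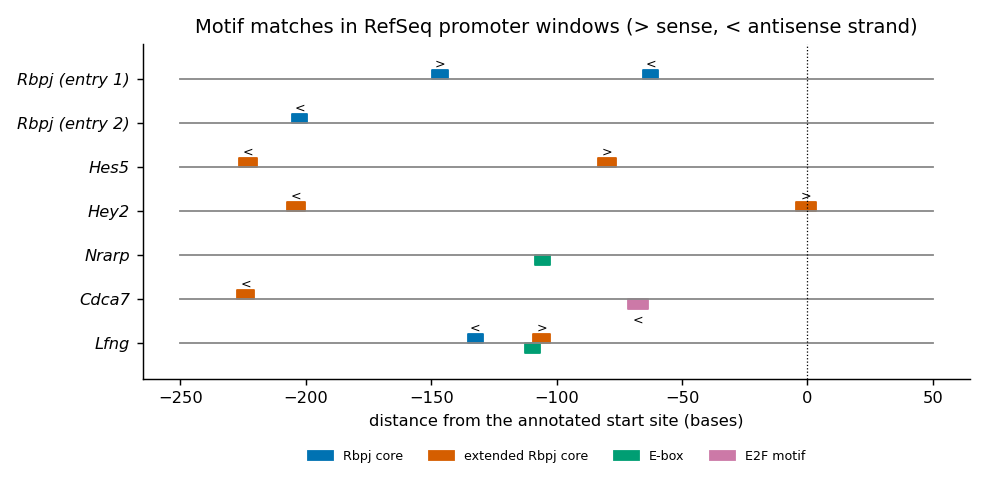
Matches to 4 motifs in the 7 RefSeq promoter windows of 6 genes, by distance from the annotated start site in bases; blocks above a line are Rbpj motifs and blocks below it E-box or E2F motifs. Hes5 and Hey2 each have a pair of longer Rbpj motifs facing opposite ways, and in Lfng an E-box overlaps one.

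The rest of the pathway, together with the chromatin and DNA replication genes above, was read from 8 lists with 116 distinct measured genes. Among them 11 rose and 12 fell. These are 9.48% and 10.3% of the lists, beside 2.71% and 4.70% of all genes. The DNA replication list supplied 6 of the rises and the chromatin list 2, and neither supplied a fall. At an unadjusted p under 0.05 in limma 39 passed, or 33.6% beside 21.0%. The 11 rises became 3, 5 and 5 without c-kit-negative replicates 1, 2 and 3 and 5 without any 1 of the c-kit-positive replicates. The median difference was 0.093, beside 0.072 over all genes.

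Of 9 receptors and ligands 2 fell, the arterial ligand Dll4 (2.29-fold) and Jag1 (3.24-fold), and none rose. All 9 had the lower mean in c-kit-positive cells, or 8 without c-kit-positive replicate 1 or 2. Their median difference was -0.49, beside 0.072 over all genes. Dll4 read 6.30, 6.45 and 6.37 in c-kit-negative and 5.36, 5.11 and 5.08 in c-kit-positive replicates 1, 2 and 3, with no overlap. Dll4, Jag1, Jag2, Notch1 and Notch4 also stand in the arterial list.

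Of 16 genes for receptor cleavage and sugar modification 3 fell and none rose. Their median was -0.093, and ran from -0.17 without c-kit-negative replicate 2 to -0.048 and -0.019 without c-kit-positive replicates 1 and 3; without c-kit-negative replicate 3 it was -0.15. Eogt, which adds N-acetylglucosamine to the EGF-like repeats of Notch receptors, fell the most of these, from 9.18, 9.72 and 8.83 in c-kit-negative to 6.57, 6.46 and 5.94 in c-kit-positive replicates 1, 2 and 3. This was a 7.57-fold difference (adjusted p = 0.000325, limma) with no overlap. Adam10, the protease of the ligand-induced cut, fell by 2.11-fold. Adam17, a related protease, was 1.63-fold lower, and its call was lost without any 1 of the 6 arrays.

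Of 21 coactivators and corepressors 2 rose and 2 fell (median 0.090, or 0.056 without c-kit-negative replicate 3). Kat2a, a histone acetyltransferase, rose by 1.61-fold and the Groucho-family corepressor Tle4 by 1.73-fold. Another Groucho-family corepressor, Tle3, fell by 1.64-fold, and L3mbtl3, which binds Rbpj at repressed targets, by 2.05-fold. Each of these 4 calls was lost without some of the arrays: 3 for Kat2a (c-kit-negative replicates 1 and 3, c-kit-positive replicate 3), 4 for Tle4 (replicates 1 and 2 of both populations), 4 for Tle3 (c-kit-negative replicates 2 and 3, c-kit-positive replicates 1 and 2) and 5 for L3mbtl3 (all but c-kit-positive replicate 3). Among 16 genes of receptor trafficking and turnover Egfl7, a secreted endothelial protein, fell by 2.86-fold, and no other passed. The list's median was -0.14, and -0.017 without c-kit-negative replicate 1. Egfl7 also stands in the pan-endothelial list.

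None of the 7 other genes of the Hes family passed, and 0 had an unadjusted p under 0.05 (limma); with no variance moderation the count past the threshold was also 0. The smallest p was that of Helt, with a difference of 0.41 (adjusted p = 0.334, limma).

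Of 11 other reported Notch targets 4 fell and 1 rose. Their median of 0.037 turned to -0.13 without c-kit-negative replicate 1, and to -0.016 and -0.15 without c-kit-positive replicates 1 and 2. Efnb2, the arterial ephrin, was 5.49-fold lower, the G1 cyclin Ccnd1 4.16-fold, the mesenchymal repressor Snai2 2.98-fold and the ephrin receptor Epha3 2.27-fold. Efnb2 also stands in the arterial list. The call of Epha3 was lost without c-kit-negative replicate 2 or 3 or c-kit-positive replicate 3. Gata2, a haematopoietic factor, was the rise and was named after its value was seen. It read 6.60, 6.66 and 6.47 in c-kit-negative and 7.84, 7.40 and 7.11 in c-kit-positive replicates 1, 2 and 3. Its populations did not overlap and it rose by 1.83-fold (adjusted p = 0.0321, limma), but the call was lost without any 1 array other than c-kit-positive replicate 3.

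**Figure D4:**
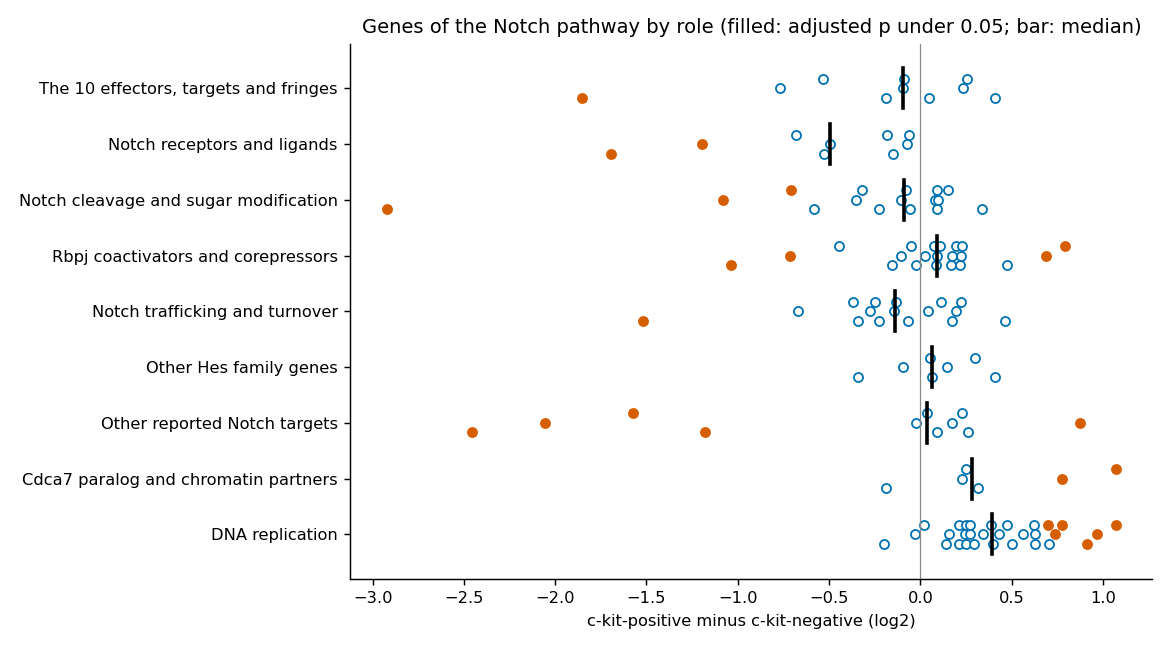
Differences (c-kit-positive minus c-kit-negative, log2, horizontal axis) of the 10 genes and of 8 lists, the chromatin and DNA replication lists among them, 1 point per gene. Points are filled where the adjusted limma p was under 0.05, and black bars mark list medians. All 9 receptors and ligands lie below 0, and 28 of 30 DNA replication genes above it (27 after quantile normalization, and 26 to 29 with 1 array left out). Over all genes the median difference was 0.072.

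Marker genes of other cell types were read on the same arrays. Of 12 venous and lymphatic markers 10 fell, and of 19 mesenchymal and smooth muscle markers 9 fell, and neither list had a rise. The 9 became 6 without c-kit-positive replicate 1 and 10 without c-kit-negative replicate 2. Of 18 macrophage markers 3 fell, or 1 without c-kit-positive replicate 1. Of 10 platelet markers 5 fell, or 3 without c-kit-negative replicate 2 or 3 or c-kit-positive replicate 1. Of 21 haematopoietic progenitor markers 8 rose and 1 fell; the rises became 5 without any 1 of the c-kit-negative arrays or c-kit-positive replicate 1, and the fall was lost without any 1 array other than c-kit-positive replicate 1. Of 13 erythroid markers 2 rose and 3 fell, and 1 rose without c-kit-negative replicate 1 or 2 or c-kit-positive replicate 3. The epithelium of mesonephros and gonad, with 17 markers, had 2 rises and 2 falls. Of 11 neural and neural crest markers 1 rose and 1 fell, and of 12 presomitic and somite markers 2 fell, or 3 without c-kit-positive replicate 1. The neural rise was that of Sox2, which is also counted in the germ cell list. The germ cell list averaged 6.63 to 6.78 on the c-kit-negative and 7.70 to 7.88 on the c-kit-positive arrays. The part of these cell types in the values of the 10 genes was not tested beyond what is given above.

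**Figure D5:**
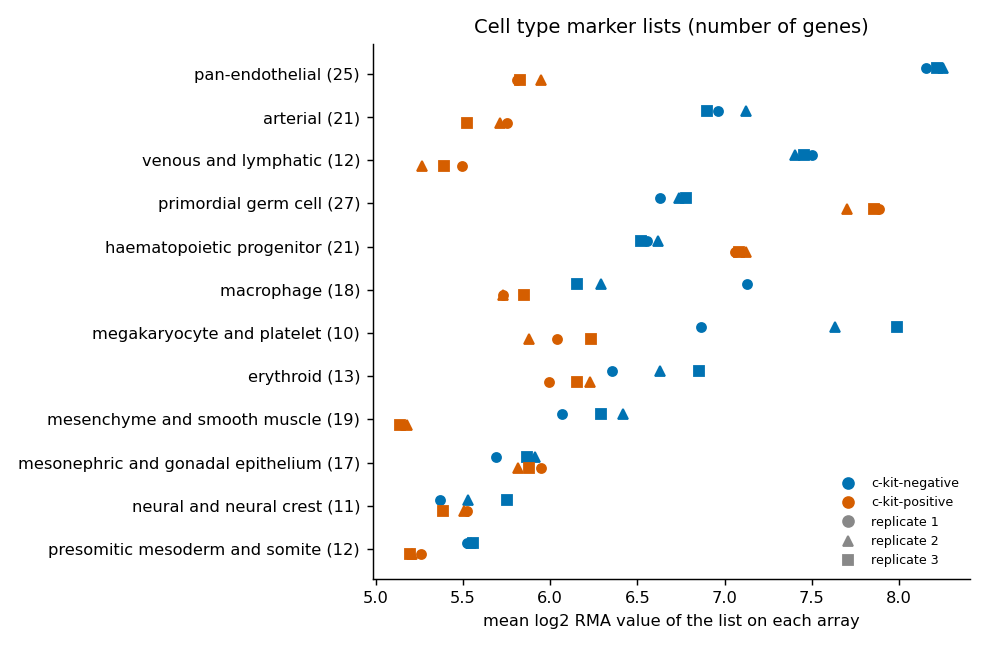
Mean log2 RMA value of 12 cell type marker lists on each of the 6 arrays, with the number of genes in brackets; colours are populations and shapes replicate numbers. The pan-endothelial list lies at 8.15 to 8.26 on c-kit-negative and 5.81 to 5.95 on c-kit-positive arrays, and the germ cell list lies the other way.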

How the data were processed

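The authors deposited log2 values from RMA, which subtracts background, equalises array distributions and summarises probes; RMA is named in the submitters' processing notes, its version is not given in the sources used here, and the log2 scale was inferred from the range of values. RNA (5 ng a sample) was amplified before labelling, per the labels' protocols, which can distort ratios. The platform annotation gave 1 symbol for 21640 of 34760 probe sets, several for 1321 and did not list 11799. For 954 genes with several probe sets, Rbpj among them, the highest mean over 6 arrays was used. The comparison used lmFit and eBayes of limma 3.58.1 under R 4.3.3 (two-sided, no filter or block), with Benjamini-Hochberg adjustment over 19937 genes, tested on simulated data. The members, lists and rules were chosen with earlier results of these data known. Named are the 10 members and up to 4 genes past the threshold from each pathway list (or that of smallest p). So are the 3 genes most like each member that passed, gene models known only by a number and small RNAs aside. Rfng, Gata2 and 4 chromatin genes were named outside this rule. So were Jag2, Notch1, Notch4 and Sox2, and Kit, Pecam1 and Ptprc for the sort. Alternatives covered normalization, dim genes, probe sets, variance models, the replicate block and each array left out. Genes without a probe set of 1 symbol were not analysed here.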

Additional observations from a re-analysis of the deposited data

How the results depend on the processing

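Hey2 fell and passed under all 15 alternatives that tested it; leaving out the dimmest 50 percent removed it, so that 0 members passed there. Members lower numbered 1 to 2 with 1 array left out, the second being Nrarp. Rbpj ran from -0.21 to 0.034, Hes5 from -0.035 to 0.090 and Hey1 from -0.21 to 0.076 with 1 array left out, and Rbpj was 0.23 with probe sets averaged. With all probe sets 202 genes rose, 2 of them in the 8 lists. Without variance moderation 66 rose and 216 fell, 1 and 3 of them in the 8 lists. With 1 array left out 276 to 369 genes rose, 3 to 5 of them in the 8 lists. Samples of the same replicate number did not deviate together (correlations 7e-04, 0.024 and 0.059), and 2 of 3 c-kit-positive arrays correlated best with their own number; the replicate block gave 2 members lower, Hey2 and Nrarp (adjusted p = 0.043, limma). The causes were not tested.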
